A study of Bos taurus with 12 samples.

Results

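The core circadian clock genes were followed in endometrium, the tissue that lines the uterus, of pasture-kept dairy cattle (Bos taurus) in 4 classes of progesterone on day 4 of the estrous cycle. The genes were taken by name: 10 were proposed, 8 of them had a row among the 13930 symbols of the count table (ARNTL, CLOCK, PER2, CRY1, CRY2, NR1D1, NR1D2 and DBP), and 7 had enough reads to be tested among 10959 tested genes. CLOCK was listed at 0 in all 12 libraries, and PER3 and TEF were not analysed here. Polyadenylated RNA of biopsies was sequenced in 12 libraries, 3 to a class: very low (titled ANE, below 0.25 ng/ml), low (LPP4, below 1.4, given in mg/dl), high (HPP4, above 2.5 ng/ml) and very high (SO, above 20 ng/ml). The order of the classes used here follows their names, since the low label differs in unit from the others and cannot be placed by its value. The series asks how progesterone in early diestrus goes with endometrial gene expression. The labels name no treatment, breed or age, do not say what ANE and SO stand for, and do not say whether replicates come from different animals. The p-values therefore reflect only how far these samples scatter, which may be technical. No hour of biopsy is given in the labels, so each clock gene value is a level at an unrecorded time of day.

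The clock is a transcriptional feedback loop found in nearly every cell. ARNTL (also called BMAL1) pairs with CLOCK or its relative NPAS2 and switches on the period genes (PER), the cryptochrome genes (CRY), the nuclear receptors NR1D1 and NR1D2 (REV-ERB alpha and beta) and DBP. PER and CRY proteins then shut off ARNTL and CLOCK, while NR1D1 and NR1D2 repress ARNTL itself, so that in a rhythmic tissue ARNTL messenger RNA peaks when DBP and NR1D1 are low. DBP is an output factor that passes the rhythm on to other genes. PER1 is also induced directly by glucocorticoids, and steroid hormones and the clock are known to meet in the uterus.

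Library totals ran from 3772564 to 8379489 counted reads. Levels are given as CPM, reads of a gene relative to the scaled library size, which compare 1 gene between libraries and not 1 gene with another. The libraries differed in tissue make-up. The 13 tested smooth muscle markers had a summed level of 14335 to 36144 CPM over the 6 libraries of the 2 upper classes, of 543.4 to 1790 CPM in the low class, and of 597 and 1670 CPM in very low replicates 2 and 3, but of 86481 CPM in very low replicate 1. That library also had the lowest sum of the 14 epithelial markers, 244.4 CPM against 1721 to 6769 CPM in the other 11. Of the 8 endometrial genes listed, 5 were tested (PGR, ESR1, HOXA10, MSX1 and FOXL2), and FOXL2 was at 0 in that same library. Very low replicate 1 therefore stands apart, and some results are also given without it or as a range over fits without single libraries. In such bulk tissue, fewer cells of a type and less RNA per cell cannot be told apart.

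Across the 7 tested clock genes the levels tended upward with the progesterone class for 6 and downward for NR1D2, but 1 slope passed the test. DBP rose by 0.38 ± 0.10 (SE) log2 units a class (edgeR quasi-likelihood adjusted p = 0.0425). It was 1 of 7 members, where 7.48% of all tested genes were called in the same trend. The other slopes were 0.58 for PER2, 0.42 for CRY2, 0.26 for CRY1, 0.20 for NR1D1, 0.18 for ARNTL and -0.28 for NR1D2, with edgeR adjusted p of 0.0640 (CRY2) to 0.449 (NR1D1). The median slope of the members was 0.26 and that of all tested genes -0.04. At an unadjusted p under 0.05 there were 5 of 7 members and 27.9% of all genes.

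**Figure D1:**
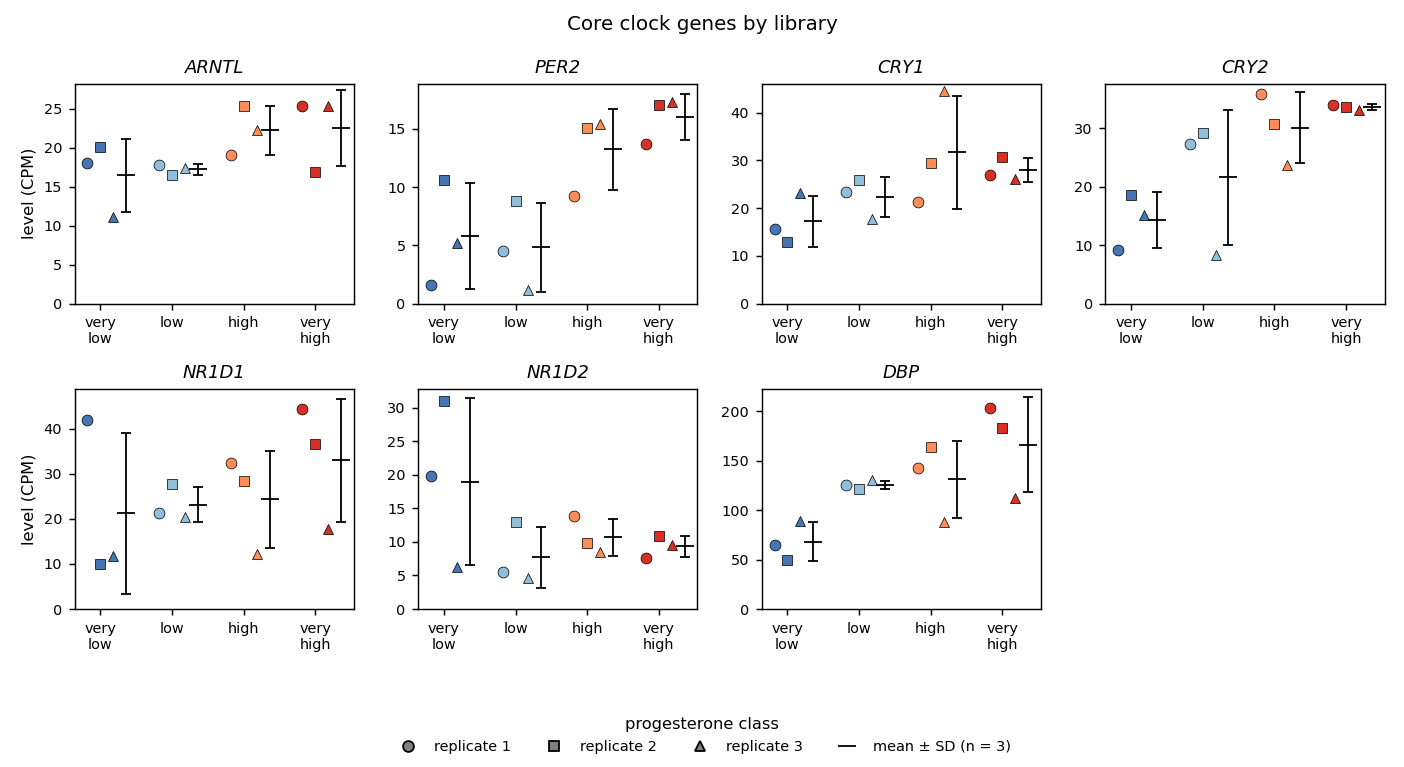
Level in CPM (vertical axes, from 0) of the 7 tested clock genes in each library, by progesterone class. Symbols are replicates 1 to 3, and bars are the mean ± SD of 3 libraries. DBP lies between 49.8 and 89.4 CPM in the very low class and between 87.8 and 203 CPM elsewhere, and PER2 is above 9 CPM in each high and very high library.

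DBP, the output factor, was lowest in the very low class. The 3 very low libraries had 64.9, 49.8 and 89.4 CPM (193 to 688 reads), the low ones 125.3, 121.4 and 129.96 CPM, the high ones 142.2, 163.5 and 87.8 CPM, and the very high ones 203.3, 183.0 and 112.1 CPM. All low and very high values lay above all very low values, while high replicate 3 fell just under very low replicate 3. Class means were 68.0 ± 20.0, 125.6 ± 4.28, 131.2 ± 39.0 and 166.1 ± 47.9 CPM (SD, n = 3 each). The step from very low to low was 0.88 ± 0.30 (SE) log2 units (edgeR adjusted p = 0.331). The following steps were 0.06 ± 0.30 from low to high and 0.34 ± 0.30 from high to very high (edgeR adjusted p = 0.962 and 0.99994). Very high against very low differed by 1.29 ± 0.30 log2 units, a 2.44-fold difference whose edgeR adjusted p of 0.0575 missed the threshold.

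The DBP call depended on which libraries were in the fit. Over the low, high and very high classes alone its slope was 0.20 (edgeR adjusted p = 0.427). The call ended on leaving out any of the 9 very low, high or very high libraries (edgeR adjusted p of 0.0530 to 0.101, slopes of 0.33 to 0.47), and it held without any 1 low library. Its slope was 0.34 without very low replicate 1.

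**Figure D2:**
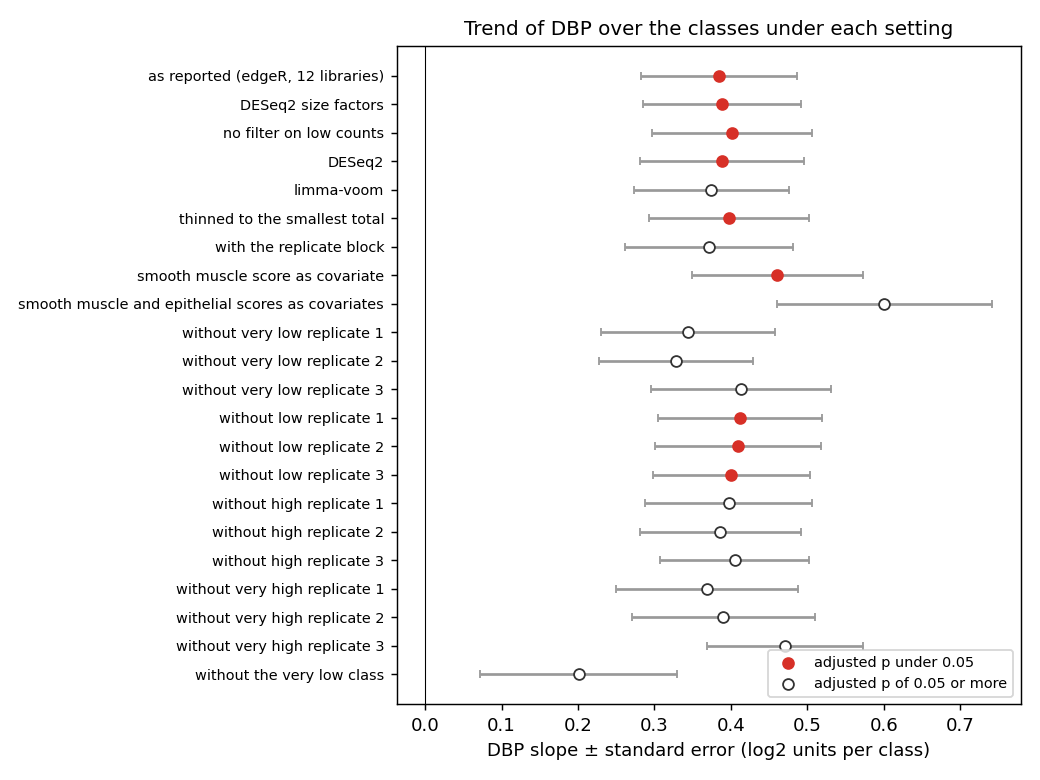
Slope of DBP per progesterone class (horizontal axis, log2 units, with standard errors) as reported and under 21 other settings. Filled points have an adjusted p under 0.05. All slopes are above 0, from 0.20 to 0.60, and 8 of the 21 other settings kept the call.

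The period gene PER2, a repressor of the loop, was low and uneven in the lower classes. It had 1.59, 10.6 and 5.20 CPM in the very low class, where very low replicate 1 held 9 reads, and 4.48, 8.83 and 1.16 CPM in the low class, where low replicate 3 held 8 reads. The high libraries had 9.26, 15.0 and 15.4 CPM and the very high ones 13.7, 17.1 and 17.3 CPM. All 3 high values were above all 3 low ones, and very high values were above those of both lower classes. High against low differed by 1.45 ± 0.70 (SE) log2 units (edgeR adjusted p = 0.509), and very high against very low by 1.48 ± 0.71 (edgeR adjusted p = 0.229). The latter difference ran from 1.03 to 2.25 when single libraries were left out. PER2 had 8 to 137 reads a library, the lowest counts among the tested members, so its low values carry the most counting error.

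The cryptochrome CRY2, the other partner in repression, was most even in the very high class. Its very high values were 34.1, 33.7 and 33.1 CPM, its high values 35.96, 30.7 and 23.7 CPM, its low values 27.3, 29.3 and 8.39 CPM and its very low values 9.19, 18.6 and 15.2 CPM. No very low library reached a high or very high one, while low replicate 3 lay at the level of very low replicate 1. Very high against very low differed by 1.23 ± 0.42 (SE) log2 units (edgeR adjusted p = 0.119). Without low replicate 3 the same difference was 1.23 and passed (edgeR adjusted p = 0.0440), as did the slope of 0.38 (edgeR adjusted p = 0.0466). Over all fits without single libraries the difference ran from 0.99 to 1.49 and the slope from 0.34 to 0.47, and no other such fit called CRY2.

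CRY1, its paralogue, moved less. It had 15.6, 12.9 and 23.3 CPM (very low), 23.3, 25.8 and 17.7 CPM (low), 21.2, 29.5 and 44.5 CPM (high) and 27.0, 30.8 and 26.1 CPM (very high). The very high class lay just above all very low and low values, and high replicate 3 was the highest of the 12 libraries. Very high against very low differed by 0.69 ± 0.31 (SE) log2 units (edgeR adjusted p = 0.207) and high against low by 0.51 ± 0.31 (edgeR adjusted p = 0.599).

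ARNTL, the activator, varied least among classes. Its values were 18.03, 20.1 and 11.2 CPM (very low), 17.8, 16.5 and 17.4 CPM (low), 19.1, 25.4 and 22.2 CPM (high) and 25.4, 17.0 and 25.3 CPM (very high). The high libraries all lay above the low ones, and every other pair of classes overlapped. The differences were 0.37 ± 0.27 (SE) log2 units for high against low (edgeR adjusted p = 0.662) and 0.46 ± 0.27 for very high against very low (edgeR adjusted p = 0.322).

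CLOCK, the partner of ARNTL, was listed at 0 in all 12 libraries. A count of 0 allows up to 3 reads, or 0.343 to 0.774 CPM a library, by counting error alone. Genes that nearly every cell uses were also listed at 0 in all 12, such as the proteasome subunit PSMC4, the isoleucine tRNA ligase IARS, the microRNA-processing enzyme DICER1 and the respiratory subunit COX6B1, all picked as examples with their values known. CLOCK is therefore given only as listed at 0. No other gene of the annotation used for names overlaps CLOCK. NPAS2, which can take its place in the pair, was measured and is described with the wider clock genes.

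The nuclear receptor NR1D1, the repressor of ARNTL, spread as widely within classes as between them. It had 41.9, 10.1 and 11.7 CPM (very low), 21.4, 27.6 and 20.4 CPM (low), 32.3, 28.4 and 12.1 CPM (high) and 44.4, 36.6 and 17.8 CPM (very high). Very low replicate 1 was second only to very high replicate 1, and every pair of classes overlapped. Very high against very low differed by 0.63 ± 0.57 (SE) log2 units (edgeR adjusted p = 0.518), and by 1.58 without very low replicate 1. High against low was 0.07 ± 0.56 (edgeR adjusted p = 0.980). The NR1D1 locus overlaps that of THRA, the thyroid hormone receptor alpha, and since the strand setting of the counting is unknown their reads cannot be told apart where they overlap. THRA had 68.0 ± 30.9, 38.1 ± 6.60, 66.5 ± 8.61 and 71.8 ± 10.1 CPM (SD, n = 3) from very low to very high, and its highest library, at 103.6 CPM, was also very low replicate 1.

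NR1D2, the paralogue of NR1D1, was the 1 member with a negative slope. It had 19.8, 31.0 and 6.24 CPM (very low), 5.54, 12.9 and 4.63 CPM (low), 13.8, 9.82 and 8.46 CPM (high) and 7.67, 10.8 and 9.50 CPM (very high). The high mean of the very low class came from replicates 1 and 2, and its replicate 3 was among the lowest of all libraries. Very high against very low differed by -1.02 ± 0.55 (SE) log2 units (edgeR adjusted p = 0.288) and low against very low by -1.29 ± 0.56 (edgeR adjusted p = 0.415). Without very low replicate 2 the former difference was -0.42. Over the upper 3 classes alone the slope was 0.14.

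**Figure D3:**
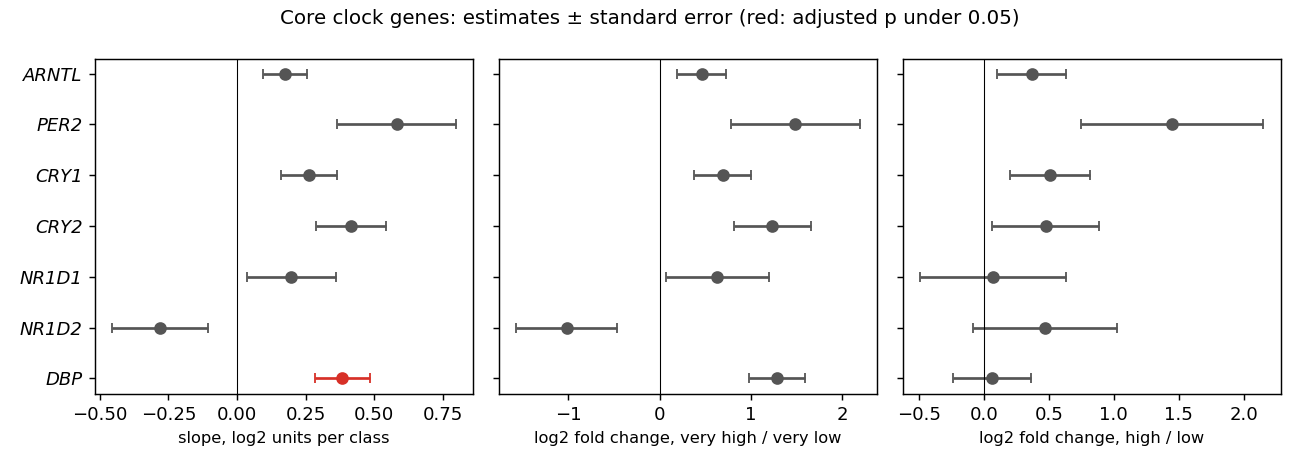
Slope per class (left), log2 fold change of very high over very low (middle) and of high over low (right) for the 7 tested clock genes, with standard errors on horizontal log2 axes. DBP in the trend, at 0.38, is the 1 estimate past an adjusted p of 0.05 (red), and NR1D2 is the 1 gene below 0 in the left and middle panels.

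Between pairs of classes no clock gene passed the test. For very high against very low 0 of 7 were called by edgeR where 1.52% of all genes were, with 3 of 7 (DBP, CRY2 and CRY1) and 23.8% of all genes at an unadjusted p under 0.05. DESeq2 called 2 of 7 (DBP and CRY2) and 13.8% of all genes, and limma-voom 0 of 7 and 0.00912% of all genes. The median log2 fold change was 0.69 for the members and -0.12 for all genes. For high against low 0 of 7 members and 0% of all genes were called by edgeR. There 0 members and 10.3% of all genes had an unadjusted p under 0.05. Neither DESeq2 nor limma-voom called a member, where they called 2.2% and 0% of all genes. The median log2 fold changes were 0.47 for the members and -0.02 for all genes.

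In the other 4 pairs and in the joint test of the 4 classes, edgeR called 0 of 7 members and 0% of all genes. Members with an unadjusted p under 0.05 numbered 1 of 7 for very high against low (PER2; 11.9% of all genes) and 0 for very high against high (0.794%). They numbered 3 for high against very low (CRY1, CRY2 and DBP; 18.8% of all genes), 2 for low against very low (NR1D2 and DBP; 11.6%) and 1 in the joint test (DBP; 17.8%). DESeq2 called DBP and 11.9% of all genes in the joint test. It called no member in those pairs, with 3.38% of all genes for very high against low and 0% for very high against high. Its shares of all genes were 7.19% for high against very low and 2.6% for low against very low. In those pairs and the joint test limma-voom called no member and 0% of all genes. These comparisons share libraries and are not independent of one another.

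Immune cell markers had steeper median slopes over the classes than the tissue markers given above. Median slopes were -0.86 for macrophage and dendritic cell, -0.69 for T and NK cell and -1.48 for neutrophil markers. They were 0.02 for smooth muscle and -0.10 for epithelial markers. The smooth muscle slope covers large steps in opposite directions. Its median was -4.46 log2 units for low against very low, with very low replicate 1 at 86481 CPM, and 4.16 for high against low. For macrophage and dendritic cell markers these medians were 0.04 and -1.83. Summed levels of the 9 macrophage and dendritic cell markers were 305.1 to 768.7 CPM (very low), 206.9 to 678.9 CPM (low), 98.7 to 152.8 CPM (high) and 86.9 to 131.5 CPM (very high), with none at 0 in any library. Those of the 12 T and NK cell markers were 249.5 to 580.8, 201.3 to 614.3, 102.6 to 259.2 and 96.2 to 166.6 CPM in the same order. Those of the 7 neutrophil markers were 212.1 to 19190, 3508 to 5280, 400.4 to 1754 and 216.0 to 290.5 CPM, with CXCR2 at 0 in a very low and MMP9 in a very high library. Of the 13 smooth muscle markers none was at 0 either. When the fit also held a smooth muscle score, DBP had a slope of 0.46 and CRY2 of 0.55, and both passed (edgeR adjusted p = 0.0243 and 0.0353), as did 14.5% of all genes in that fit. With smooth muscle and epithelial scores together DBP had 0.60 (edgeR adjusted p = 0.0921), CRY2 0.36 and PER2 0.16. No member passed in that fit, where 0% of all genes were called. The part of other cell types in these differences was not tested beyond these fits.

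Among the 21 pairs of clock genes 1 correlation across the 12 libraries passed. PER2 and CRY2, both repressors, rose and fell together with Pearson r = 0.87 (permutation p = 0.00128, Benjamini-Hochberg adjusted over the 21 pairs 0.0269), while Spearman's rho was 0.64 (permutation p = 0.0301, adjusted 0.158). The relation rested on very low replicate 1 and low replicate 3, which were lowest in both genes: r was 0.49 without the 2 libraries farthest from the PER2 median. Around the class means r was 0.83 (exact within-class permutation p = 0.0648, adjusted 0.790). It was 0.83 in the 6 very low and low libraries (exact permutation p = 0.0458, adjusted 0.481) and -0.36 in the 6 high and very high ones (exact permutation p = 0.388, adjusted 0.678).

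DBP and NR1D1, both switched on by ARNTL and CLOCK, had r = 0.61 (permutation p = 0.0343, adjusted 0.213) and rho = 0.64 (permutation p = 0.0278, adjusted 0.158) over the 12 libraries. Without the 2 libraries farthest from the NR1D1 median r was 0.34, and around the class means it was 0.55 (exact within-class permutation p = 0.182, adjusted 0.790). In the 6 high and very high libraries, a subset chosen after the values were seen, r was 0.97 (exact permutation p = 0.00417, adjusted over 21 pairs 0.0875) and rho 0.94. There replicate 3 of each class was lowest in both genes, and r was 0.78 without the 2 libraries farthest from the NR1D1 median. In the 6 very low and low libraries r was 0.28 (exact permutation p = 0.600, adjusted 0.897), with very low replicate 1 high in NR1D1 and low in DBP.

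ARNTL, whose rhythm runs opposite to that of DBP and NR1D1, had no negative r with a member over the 12 libraries. It had r = 0.24 with DBP (permutation p = 0.453, adjusted 0.716), 0.22 with NR1D1 (permutation p = 0.491, adjusted 0.716) and 0.48 with PER2 (permutation p = 0.118, adjusted 0.310). Without the 2 libraries farthest from the ARNTL median these were -0.05, -0.37 and 0.53. CRY1 and CRY2 had r = 0.57 over the 12 libraries (permutation p = 0.0556, adjusted 0.213) but -0.93 in the 6 high and very high ones (exact permutation p = 0.0139, adjusted 0.146), where high replicate 3 was highest in CRY1 and lowest in CRY2. Without the 2 libraries farthest from the CRY1 median that value was -0.28.

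**Figure D4:**
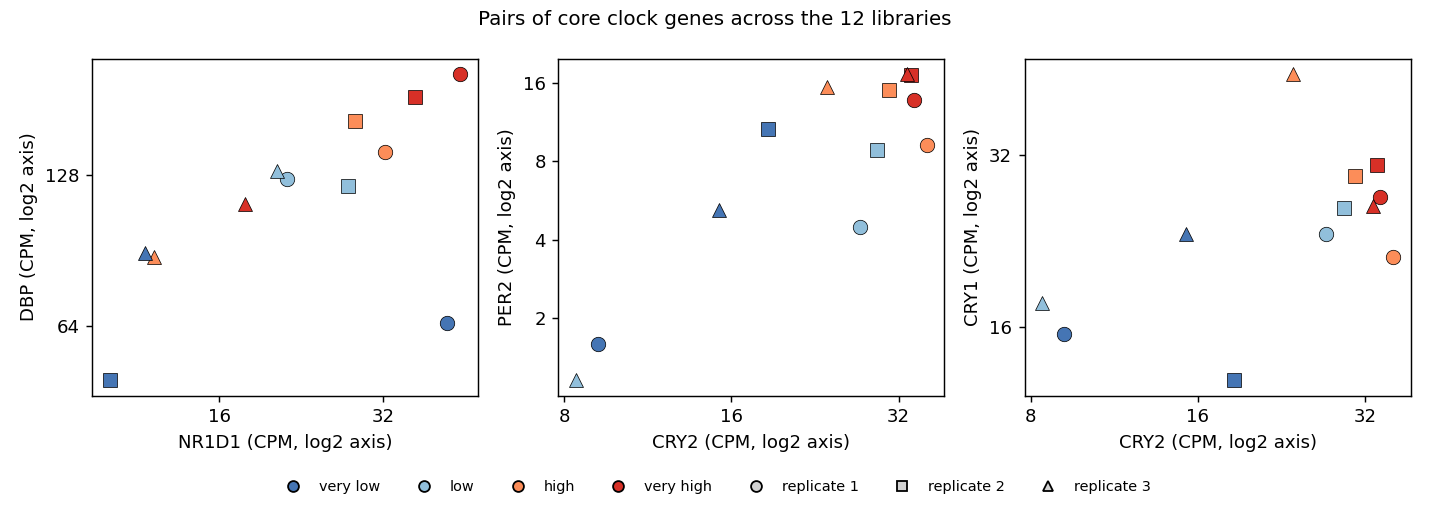
Levels of NR1D1 and DBP (left), CRY2 and PER2 (middle) and CRY2 and CRY1 (right) in the 12 libraries, in CPM on log2 axes, with classes by colour and replicates by symbol. Very low replicate 1 (41.9 CPM of NR1D1, 64.9 CPM of DBP) lies away from the other libraries at left, and very low replicate 1 and low replicate 3 lie at the lower left in the middle panel.

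The wider clock held 10 tested transcription factors besides the members, of which 1 fell in the trend and none rose, beside 489 of all 10959 genes that fell and 331 that rose (7.48% together). BHLHE40 (DEC1), which represses the targets of ARNTL and CLOCK, had 27.4, 310.8 and 34.1 CPM (very low), 50.3, 74.5 and 67.6 CPM (low), 29.1, 12.9 and 22.1 CPM (high) and 18.5, 15.2 and 12.4 CPM (very high). Its low values all lay above its high and very high ones, and very low replicate 2 stood far above the rest. Its fitted change was -1.05 ± 0.23 (SE) log2 units a class (edgeR adjusted p = 0.0298). It was -0.62 without very low replicate 2 (edgeR adjusted p = 0.109), and the call also ended without high replicate 1 or any 1 very high library (edgeR adjusted p of 0.0532 to 0.0800). Its paralogue BHLHE41 had 6.09 ± 4.38, 10.995 ± 2.45, 5.37 ± 1.71 and 5.73 ± 1.51 CPM (SD, n = 3) from very low to very high.

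Like PER2, the steroid-inducible period gene PER1 had lower means in the very low and low classes than in the upper ones. Low against very low was 1.09 log2 units for PER1 but -0.24 for PER2, neither past the threshold. PER1 had 14.5, 91.6 and 77.6 CPM (very low), 151.3, 180.7 and 59.5 CPM (low), 199.5, 232.9 and 162.9 CPM (high) and 170.8, 190.7 and 184.8 CPM (very high). Very low replicate 1 and low replicate 3 were its 2 lowest libraries, as for PER2 and CRY2. Its slope was 0.53 ± 0.20 (SE) log2 units (edgeR adjusted p = 0.103), and 0.37 to 0.61 without single libraries. NPAS2, the relative of CLOCK, had a very low mean of 9.37 ± 3.82 CPM and 20.8 ± 3.82, 17.96 ± 3.802 and 24.7 ± 4.44 CPM in the following classes (SD, n = 3), and all 3 very low libraries lay below the other 9. Its slope was 0.38 ± 0.12 (edgeR adjusted p = 0.0742). In the pairs of classes edgeR called 0 of these 10 factors, with 1 of 10 at an unadjusted p under 0.05 in high against low (NFIL3; 10.3% of all genes) and 5 of 10 in very high against very low (23.8% of all genes). The smallest p of the latter was that of NPAS2, at 1.39 log2 units (edgeR adjusted p = 0.0563).

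NFIL3, which competes with DBP for the same DNA sites, had 47.1 ± 32.3 and 56.3 ± 21.1 CPM in the lower classes and 124.5 ± 35.8 and 125.3 ± 48.6 CPM in the upper ones (SD, n = 3), with a slope of 0.55 ± 0.15 (edgeR adjusted p = 0.0506). HLF, a relative of DBP, had 0.16 (edgeR adjusted p = 0.206). RORA and RORB, receptors which activate ARNTL at the sites that NR1D1 binds, had slopes of 0.11 and 0.68 (edgeR adjusted p = 0.769 and 0.223). RORB had 0.353, 6.20 and 16.6 CPM in the very low class and 34.4 to 67.1 CPM in the other 9 libraries. For TIMELESS the slope came to -0.15 (edgeR adjusted p = 0.333). ARNTL2 had at most 7 reads a library and was not tested, and CIART was not analysed here.

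**Figure D5:**
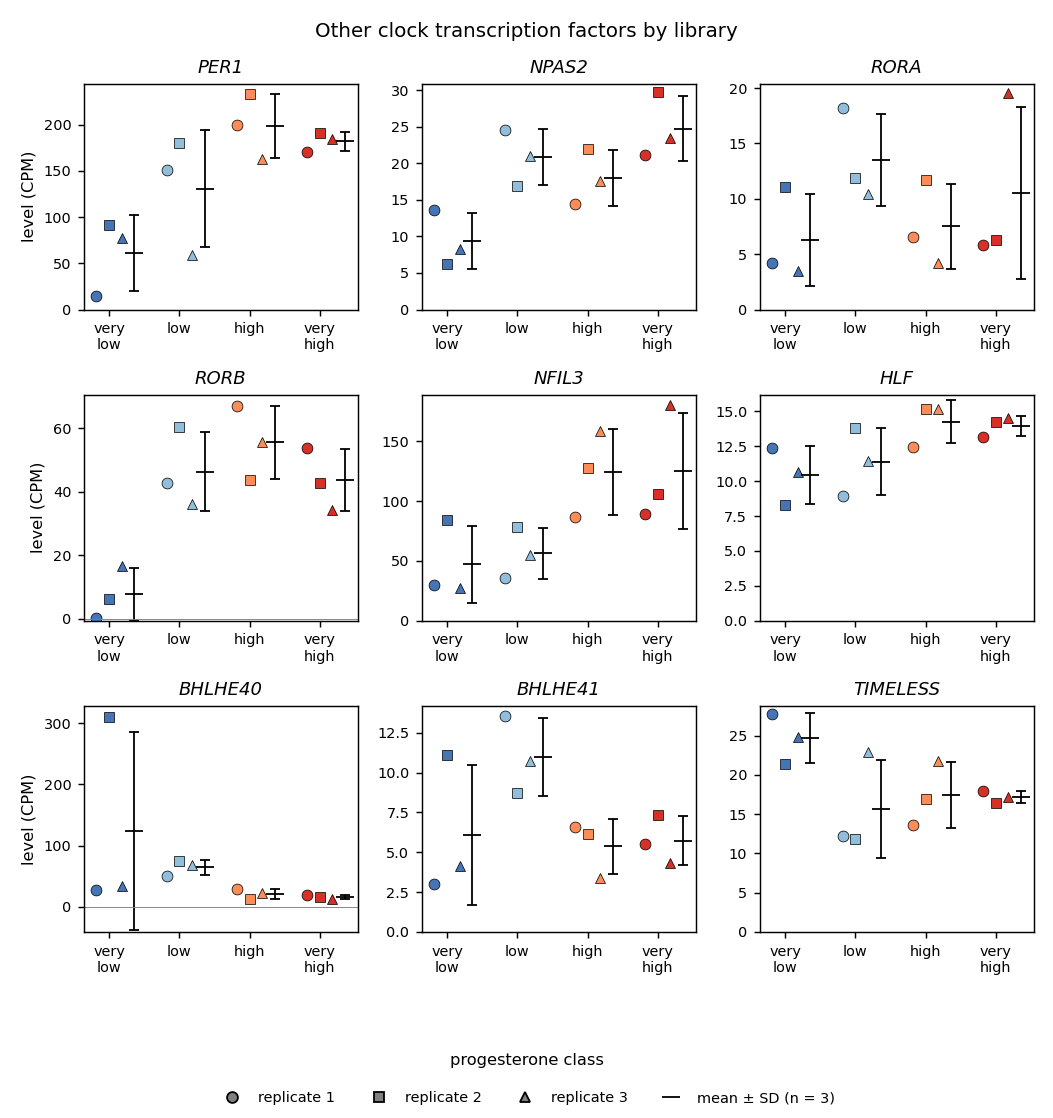
Level in CPM (vertical axes) of 9 other clock transcription factors in each library by progesterone class, with replicates by symbol and bars for the mean ± SD of 3 libraries (some lower ends fall below the grey line at 0). BHLHE40 falls from 64.1 CPM in the low to 15.4 CPM in the very high class with 310.8 CPM in very low replicate 2, and RORB and NPAS2 are lowest in the 3 very low libraries.

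Of 26 tested kinases, ligases and cofactors that modify clock proteins, 1 fell in the trend and none rose (median slope 0.03), a share below the 7.48% of all genes called. The 1 gene was CSNK2A1, a catalytic subunit of casein kinase 2, at 81.5 ± 13.0, 65.9 ± 1.30, 61.3 ± 1.97 and 57.8 ± 1.35 CPM (SD, n = 3) from very low to very high. Its slope was -0.16 ± 0.04 (SE) log2 units (edgeR adjusted p = 0.0457), and leaving out any library other than very low replicate 1 or low replicate 3 ended the call (edgeR adjusted p of 0.0612 to 0.114). No gene of this list was called in high against low or very high against very low, where edgeR gave 1 and 7 of 26 an unadjusted p under 0.05, beside 10.3% and 23.8% of all genes. The smallest p in high against low belonged to CRTC1, a CREB coactivator (0.46), CSNK1A1, a casein kinase 1 (0.69), and BTRC, a ubiquitin ligase subunit (0.47), with edgeR adjusted p of 0.405 to 0.532. In very high against very low it belonged to CSNK2A1 (-0.50), CRTC1 (0.50) and PRKAA2, a catalytic subunit of AMP kinase (-1.69), with edgeR adjusted p of 0.0877 to 0.138.

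Of 21 tested genes known as clock outputs, 2 rose and 2 fell in the trend, where 7.48% of all genes were called (331 rose and 489 fell of 10959). KLF15, a transcription factor that both the clock and glucocorticoids control, had 8.26 ± 2.77, 33.6 ± 10.9, 39.7 ± 3.84 and 44.8 ± 3.05 CPM (SD, n = 3), and rose by 0.70 ± 0.17 (SE) a class (edgeR adjusted p = 0.0372). TSC22D3 (GILZ), a glucocorticoid-induced leucine zipper protein, had 98.9 ± 58.0, 385.7 ± 153, 502.8 ± 169 and 634.2 ± 131 CPM and rose by 0.81 ± 0.21 a class (edgeR adjusted p = 0.0395). Both also rose in very high against very low, by 2.45 and 2.68 log2 units (edgeR adjusted p = 0.0269 and 0.0399), where 1.52% of all genes were called. These calls ended without any 1 very high library for KLF15 (edgeR adjusted p of 0.0524 to 0.0648), and without very low replicate 2 or 3 or any 1 high or very high library for TSC22D3 (0.0520 to 0.101). As with DBP, the largest step was from the very low to the low class: over the upper 3 classes the slopes were 0.21 and 0.36 (edgeR adjusted p = 0.366 and 0.302). The trend calls ended without any 1 of 8 libraries for KLF15 (all but very low replicate 1 and the low ones) and of 9 for TSC22D3 (all but very low replicate 1 and low replicates 1 and 2), with edgeR adjusted p of 0.0520 to 0.0937.

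The falling outputs were CDKN1A, the cell cycle inhibitor p21, with a slope of -0.89 ± 0.24 (SE), and TFRC, the transferrin receptor, with -0.50 ± 0.14 (edgeR adjusted p = 0.0438 and 0.0478). In high against low edgeR called 0 of the 21 outputs, with 0 at an unadjusted p under 0.05. CDKN1A fell from 48.0 ± 50.5 CPM in the very low to 8.11 ± 2.58 CPM in the very high class and TFRC from 19.2 ± 10.02 to 6.12 ± 0.55 CPM (SD, n = 3). Without very low replicate 2 the slopes were -0.56 and -0.30 (edgeR adjusted p = 0.169 and 0.142). The call also ended without low replicate 3 or any 1 high or very high library for CDKN1A, and without any 1 library but low replicates 1 and 3 for TFRC. TFRC had a slope of -0.10 over the upper 3 classes.

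Of 11 tested steroid-inducible genes, which share PER1, KLF15, TSC22D3 and KLF9 with the clock lists, 3 rose in the trend, beside 331 of all 10959 genes: KLF15, TSC22D3 and FKBP5, a co-chaperone of steroid receptors. FKBP5 had a slope of 0.56 ± 0.10 (edgeR adjusted p = 0.0216) and lost this call without very high replicate 3 (edgeR adjusted p = 0.0561). It was also called in very high against very low, at 1.65 log2 units (edgeR adjusted p = 0.0365), where 1.52% of all genes were. That call ended without any 1 of 6 libraries (edgeR adjusted p of 0.0510 to 0.0904). The median slope of the 11 was 0.02. The 11 immediate early genes, some of which drive PER1 on stimulation, had no call and a median slope of -1.18. Their summed level was 441.5, 11876 and 638.1 CPM in the low libraries and 2980, 275.7 and 467.1 CPM in the high ones, so these classes overlapped. It was 295.5, 2055 and 2354 CPM in the very low libraries and 496.2, 366.2 and 276.8 CPM in the very high ones. Very high against low had a median of -4.15 log2 units and no call. There 8 of 11 had an unadjusted edgeR p under 0.05, beside 11.9% of all genes.

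The genes closest in pattern to 3 clock genes were ranked by Pearson r of log2 CPM over the 12 libraries, as a description (mean log2 CPM of at least 1, uncharacterised LOC symbols not named). Nearest to DBP were SCARA5, BMP4, RING1, RNASEK and CHST2 (r of 0.91 to 0.92), and most opposite were DNAJC5, RBMS1, SMIM1 and PHF19 (-0.92 to -0.90). NR1D1 came 971 among the 10958 other genes in that order, CRY2 1299, CRY1 1458, PER2 3008, ARNTL 3415 and NR1D2 9759. Nearest to NR1D1 were ETFDH, FAM45A, APLF, RNF5 and ENOSF1 (0.81 to 0.91), and most opposite AVIL, PRC1, TMEM186 and CUEDC1 (-0.88 to -0.82). DBP came 179 in that order, ahead of ARNTL (2893), CRY2 (3043), CRY1 (4809), NR1D2 (5149) and PER2 (6004). Nearest to ARNTL were UPK2, FBXO9, COQ6, MTMR7 and MINDY1 (0.86 to 0.91), most opposite were PCYOX1L, CXXC5, ARMCX6, MSX2 and TMEM70 (-0.88 to -0.82), and the members came between 995 (PER2) and 3741 (NR1D2), with CRY2 at 1340, CRY1 at 2884, DBP at 2960 and NR1D1 at 3081. No clock gene was thus among the 100 genes most like another in these 3 orders.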

How the data were processed

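Endometrial RNA was captured with oligo-dT and made into stranded, paired-end libraries run as 1 pool, per the labels' protocols. FastQC 0.11.2 and Trimmomatic 0.32 were used, with builds UMD3.1 and bosTau8, per the submitters' processing notes. For aligner, counter, strand setting and annotation, nothing is given in the sources used here. The authors deposited raw counts: unscaled whole reads for each gene symbol and library, 3772564 to 8379489 a library; the total limits precision most for genes of few reads.

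From these, edgeR 4.0.16 in R 4.3.3 kept 10959 genes by filterByExpr (count minimum 10) and scaled libraries by TMM. A quasi-likelihood fit with 1 mean a class over all 12 libraries (8 residual degrees of freedom) gave the 6 pairs and the joint test, and a slope on the class rank, 1 to 4, gave the trend. Benjamini-Hochberg adjustment ran over all tested genes (threshold 0.05). CPM are TMM-scaled, and log2 CPM used a prior count of 2. Standard errors were taken from the fold change and the F value. Correlations used 100000 two-sided permutations, 1296 exact ones within classes, and 720 exact ones in 6 libraries.

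On data simulated for very high against very low over 10959 genes, 66.0% of 4-fold and 3.00% of 2-fold changes were recovered. The changed genes were drawn from those above the median level, without differences in tissue make-up. Most 2-fold differences of such genes are thus missed at this size, and genes of few reads were not covered. Alternatives were other scaling, no filter, DESeq2 1.42.0, limma-voom (limma 3.58.1), thinned counts, a replicate block, marker scores as covariates, fewer classes and each library left out. Clock genes were all named; of the other lists, those past the threshold were named (up to 6 a list by smallest p), the 9 chief clock factors regardless, the 3 of smallest p where none passed, and for ARNTL, NR1D1 and DBP the 5 nearest and 5 most opposite genes, except 3 genes in all that are not reported here. Gene overlaps came from RefSeq's table of ARS-UCD2.0, without coordinates, since the builds differ. Members and lists were chosen with earlier results of these data known. RORB and TIMELESS were named beyond this rule, with their values known.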

Additional observations from a re-analysis of the deposited data

How the results depend on the processing

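The count of clock genes called in the trend, 1, became 3 with DESeq2 (PER2, CRY2 and DBP). DESeq2 called 18.3% of all genes there, against 7.48% as reported. The count became 2 with the smooth muscle score in the fit (14.5% of all genes). It became 0 with limma-voom (3.28%), with smooth muscle and epithelial scores (0%), and over the upper 3 classes alone (0.037%). It ran from 0 to 2 when single libraries were left out, where 0.00902% to 13.2% of all genes were called. For very high against very low the count of 0 became 2 with DESeq2 (13.8% of all genes, against 1.52%). It became 3 with the smooth muscle score (PER2, CRY2 and DBP, 16.7%). It ran from 0 to 1 without single libraries: DBP without very low replicate 3 (2.92% of all genes) and CRY2 without low replicate 3 (3.08%). It became 1 for high against very low with the smooth muscle score (CRY2, 10.5% of all genes) and 1 in the joint test with DESeq2 (11.9%). The cause of these changes was not tested. The counts for the other pairs were 0 throughout. The 1 correlated pair became 0 around class means, in the 6 upper and in the 6 lower libraries alone (both chosen after seeing the data), and 0 to 2 without single libraries (0 without very low replicate 3 or low replicate 3, 2 without very low replicate 2 or high replicate 3).

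With the replicate block the trend count was 0 (DBP adjusted p = 0.0793), where 1.64% of all genes were called. The numbers do not pair the libraries: 3 of 18 same-numbered pairs deviated together with a correlation over 0.1 (range -0.30 to 0.29).

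Of 755 recomputed gene values 13 changed direction, none of them past the threshold. With smooth muscle and epithelial scores PER2 became -0.46 and CRY1 -0.32 for very high against very low, and PER2 -1.47, CRY1 -1.08 and NR1D2 -2.12 for high against low. NR1D1 in high against low became -0.034 with limma-voom, -0.089 with the block and -0.98 with the smooth muscle score, and ran from -0.16 to 0.39 without single libraries. DBP there ran from -0.12 to 0.29. With smooth muscle and epithelial scores the high against low values of DBP and NR1D1 were far higher than the 0.06 and 0.07 reported, at 2.93 ± 1.02 and 2.60 ± 1.84 (SE; edgeR adjusted p of both 0.99917). The NR1D2 slope became 0.14 over the upper 3 classes. The very high against very low calls of KLF15, TSC22D3 and FKBP5 also ended with limma-voom, the block, both marker scores and the 6 libraries alone (adjusted p of 0.0539 to 0.616). DESeq2 gave BHLHE40 no adjusted p. At this depth PER2, with 8 reads in a library, is the least precise member.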
